A study of Mus musculus with 16 samples.

Results

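The mitotic spindle and division genes are 44 genes whose proteins condense and separate chromosomes, build the spindle and split the dividing cell. Members were the listed genes measured by a probe set with 1 gene symbol, and for each gene the brightest probe set by its mean over all arrays was used. This gave 43 of the 44 genes, among 12393 genes tested in all, and Espl1, the protease separase that opens the cohesin ring, had no such probe set. The measurements are microarray intensities of left lung RNA (whole lung RNA in the sample titles) from 16 mice, 1 array per mouse, on a log2 scale. The mice were wildtype C57BL/6 mice or adiponectin-deficient mice with C57BL/6 as the background strain, and adiponectin is a hormone secreted by fat cells. Exposure lasted 72 h, to room air or to ozone at 0.3 ppm, an oxidant of polluted air, and mean age was 14 weeks. Each of the 4 groups (wildtype air, wildtype ozone, deficient air and deficient ozone) held 4 mice, 2 males named M1 and M2 and 2 females named F1 and F2. The sources used here do not say which part of the adiponectin gene the deficient mice lack, and the deficiency was not limited to the lung or to 1 cell type by anything the labels state. Nothing says that the mice of a group came from separate litters or cages, so p-values measure the spread between these mice.

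A dividing cell condenses its chromosomes, attaches them through kinetochores to the microtubules of the spindle, and holds anaphase back by the spindle checkpoint until all are attached. The anaphase-promoting complex with its activator Cdc20 then marks securin and cyclin B for destruction, sister chromatids part, and proteins of the spindle midzone and the contractile ring divide the cytoplasm. Most of these genes are transcribed in G2 and mitosis and are low in resting cells, so in an adult lung, where few cells divide, their RNA is used as a sign of proliferation. In whole lung RNA, more dividing cells and more of this RNA per dividing cell cannot be told apart.

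Median intensities ran from 145.9 to 153.8 over the 16 arrays. Adipoq, the adiponectin gene, lay between 6.07 and 6.36 log2 intensity in deficient ozone against 7.70 to 8.76 in wildtype ozone. In air it lay between 6.32 and 6.97 on 3 deficient arrays, while the array labelled deficient air F2, at 8.82, was within the wildtype range of 7.19 to 11.52. That array and wildtype air F1 carried the fat genes Ucp1 (7.27 and 7.25, against 4.62 to 5.18 on the others) and Cidec, and the array deficient air M2 carried the squamous keratin Krt4 at 13.03 against 5.64 to 6.35. Of the labels of wildtype ozone F1, the free description says room air and the other 3 say ozone, and the array stayed in the ozone group. Its 43 members lay on average 1.11 log2 above the mean of the air arrays, within the 1.06 to 1.26 of its group. These are the genes whose ozone difference is counted below, so this value does not decide which label is right. Of the lung's own markers, Sftpc of alveolar type 2 cells lay between 14.51 and 14.62, Scgb1a1 of club cells between 14.57 and 14.72, Ager of alveolar type 1 cells between 12.87 and 13.42 and Pecam1 of endothelium between 10.20 and 11.03 on all 16 arrays.

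Ozone was compared with air in wildtype mice first. Of the 43 members 38 were higher in ozone, 2 were lower (Smc4 and Pttg1) and 3 were not called (Cenpe, Bub3 and Nek2), at an adjusted p under 0.05 by limma with Benjamini-Hochberg adjustment over all 12393 genes. Over all genes 19.6% were called higher and 17.1% lower. The members' median difference was 1.13 log2 (0.032 over all genes), 27 members rose at least 2-fold (0.823% of all genes), and 6 at least 4-fold. For 36 members all 4 ozone arrays lay above all 4 air arrays, which held for 17.1% of all genes, and for Smc4 and Pttg1 they lay below (14.2% of all genes). In deficient mice 39 members were higher, 1 was lower (Pttg1) and 3 were not called (Smc4, Cenpe and Tacc3), where 15.8% of all genes were called higher and 14.6% lower. Their median difference there was 1.44 log2 (0.012 over all genes), 29 rose at least 2-fold (1.05% of all genes) and 8 at least 4-fold, for 38 all ozone arrays lay above all air arrays (15.4% of all genes), and for 0 below (13.3%). Both comparisons called 37 members higher, against 12.4% of all genes. Without the 3 air arrays with markers of other tissues, 36 and 37 members were higher in wildtype and deficient mice, with medians of 1.14 and 1.36. Without wildtype ozone F1, the array with disagreeing labels, 38 were higher in wildtype mice.

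**Figure D1:**
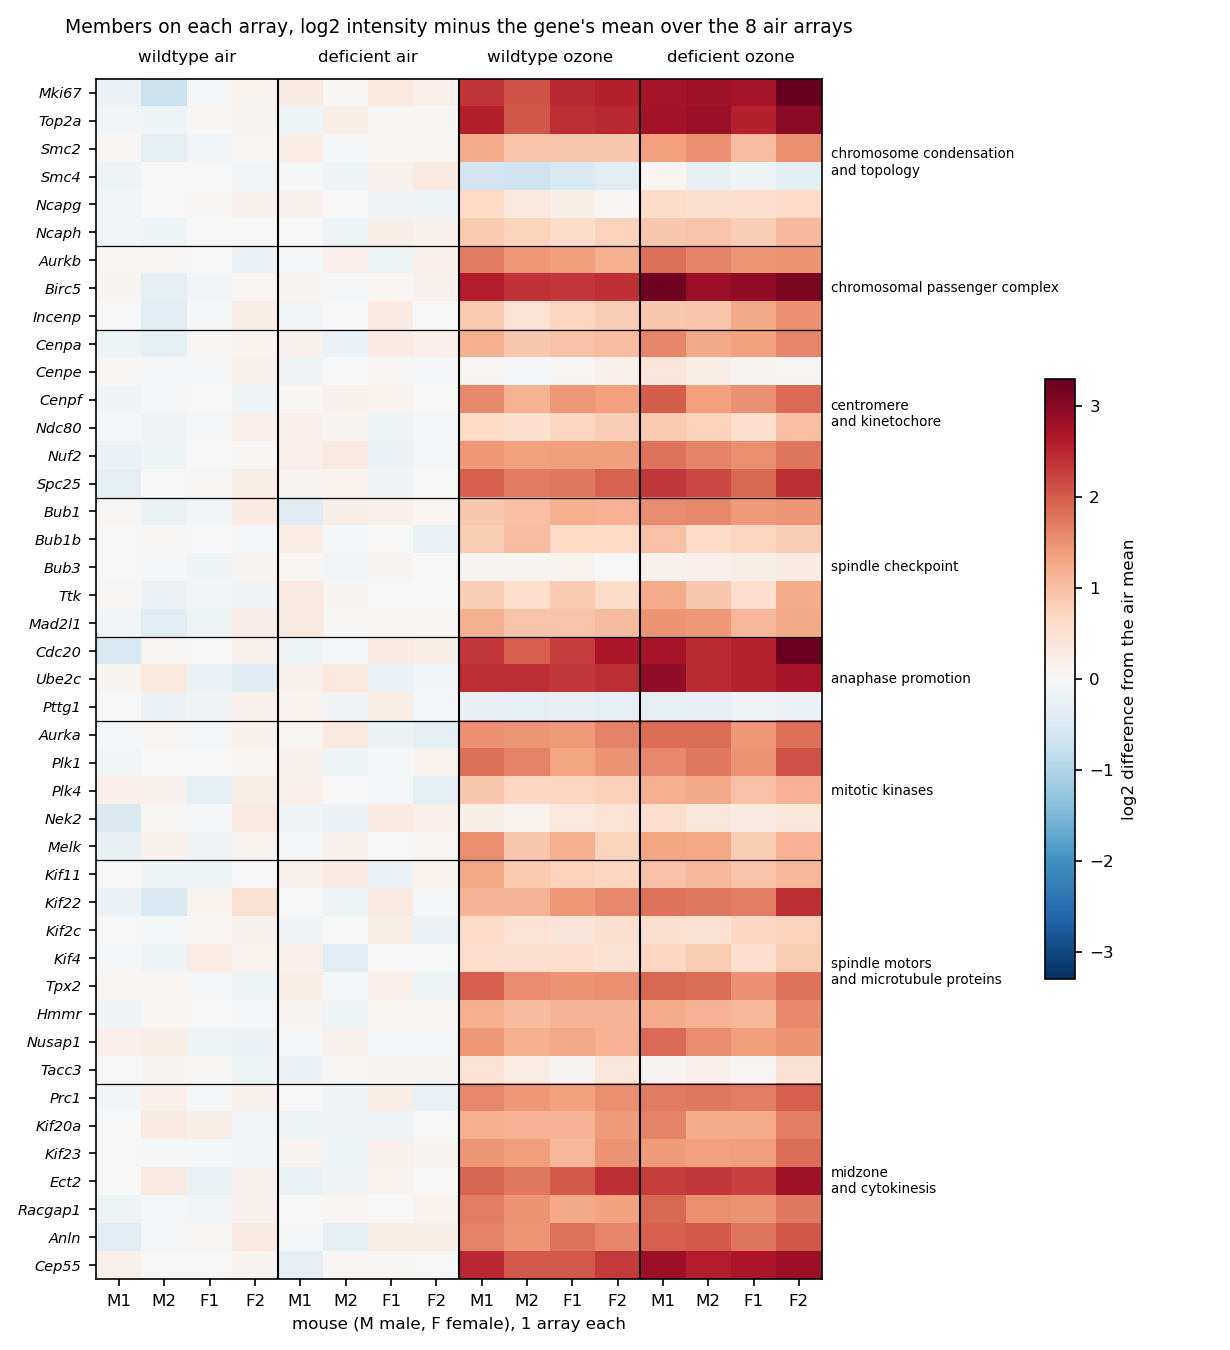
Each row is 1 of the 43 measured members, grouped by role, and each column is 1 array. Colour gives the log2 intensity minus the mean of that gene over the 8 air arrays, red for higher and blue for lower. The 8 ozone columns are red for most members, and Smc4, Cenpe, Bub3, Pttg1, Nek2 and Tacc3 are the pale or blue rows.

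Genes that rise together in G2 and mitosis often carry a cell cycle homology region, whose core is TTTGAA and which is bound by the DREAM and MuvB complexes, and CCAAT boxes bound by the factor NF-Y. To show where these letters stand, the 120 bases before the transcription start are printed for 5 members that rose strongly and carry a match (Mki67, Top2a, Ube2c, Cdc20 and Kif22), together with Birc5, which rose with neither motif in this stretch, and Pttg1, which fell. Sequences are from RefSeq's promoter table for the build GRCm38.p6, run 5′ to 3′ on the gene's strand and end at the base before the start. Capitals mark TTTGAA or CCAAT on either strand, which reads TTCAAA or ATTGG where the match is on the other strand.
Mki67: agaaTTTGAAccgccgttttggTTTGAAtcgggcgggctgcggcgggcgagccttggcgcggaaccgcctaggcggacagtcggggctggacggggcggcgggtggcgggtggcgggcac
Top2a: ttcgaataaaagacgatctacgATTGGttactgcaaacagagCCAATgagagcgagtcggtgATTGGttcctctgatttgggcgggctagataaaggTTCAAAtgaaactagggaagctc
Ube2c: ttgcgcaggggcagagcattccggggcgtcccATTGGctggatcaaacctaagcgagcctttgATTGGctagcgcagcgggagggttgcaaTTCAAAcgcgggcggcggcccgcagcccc
Cdc20: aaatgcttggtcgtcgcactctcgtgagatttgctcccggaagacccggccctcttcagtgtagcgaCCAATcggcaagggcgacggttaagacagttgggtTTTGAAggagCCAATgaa
Kif22: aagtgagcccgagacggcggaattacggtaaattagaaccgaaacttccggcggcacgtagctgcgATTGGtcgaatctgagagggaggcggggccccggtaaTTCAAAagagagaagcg
Birc5: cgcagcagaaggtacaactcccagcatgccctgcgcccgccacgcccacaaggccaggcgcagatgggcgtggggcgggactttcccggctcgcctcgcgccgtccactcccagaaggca
Pttg1: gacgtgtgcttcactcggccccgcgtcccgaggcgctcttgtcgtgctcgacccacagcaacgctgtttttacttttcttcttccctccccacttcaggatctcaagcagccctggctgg
These stretches lie at chr7:135716380-135716499 on the minus strand (Mki67), chr11:99024190-99024309 on the minus strand (Top2a), chr2:164769809-164769928 on the plus strand (Ube2c), chr4:118437344-118437463 on the minus strand (Cdc20), chr7:127042421-127042540 on the minus strand (Kif22), chr11:117849117-117849236 on the plus strand (Birc5) and chr11:43425982-43426101 on the minus strand (Pttg1). Promoters of 300 bases, from 250 before to 50 after the start, were found for 39 of the 44 listed genes, as 43 promoters, and none was at hand for Smc4, Aurkb, Incenp, Tpx2 and Kif20a. Of the 43 promoters 31 (72.1%, exact 95% interval 56.3 to 84.7%) held TTTGAA on either strand, against 17.9% of all 32851 promoters of that length. CCAAT was held by 67.4% against 37.4%, both by 60.5% against 6.95%, and at least 2 CCAAT matches by 41.9% against 11.7%. Bub3, Cep55, Ect2 and Prc1 entered with 2 overlapping promoters each, all holding TTTGAA. The interval takes promoters as independent, which these pairs are not. In the members no match of one motif overlapped a match of the other. A TTTGAA match began between base -60 and base 50 from the start in 65.1% of the member promoters and in 5.5% of all promoters. The share with TTTGAA depends on the stretch read, since it was 37.2% against 12.5% in only the 200 bases before the start. The 26 measured members with TTTGAA had a median ozone difference of 1.42 log2 in wildtype and 1.61 in deficient mice, and the 12 without had 0.92 and 1.15, with ranges that overlapped widely (0.10 to 2.58 and -0.25 to 2.50 in wildtype mice). A match is a description of the letters and not a measured binding site, and no match says only that the letters are not in this window.

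**Figure D2:**
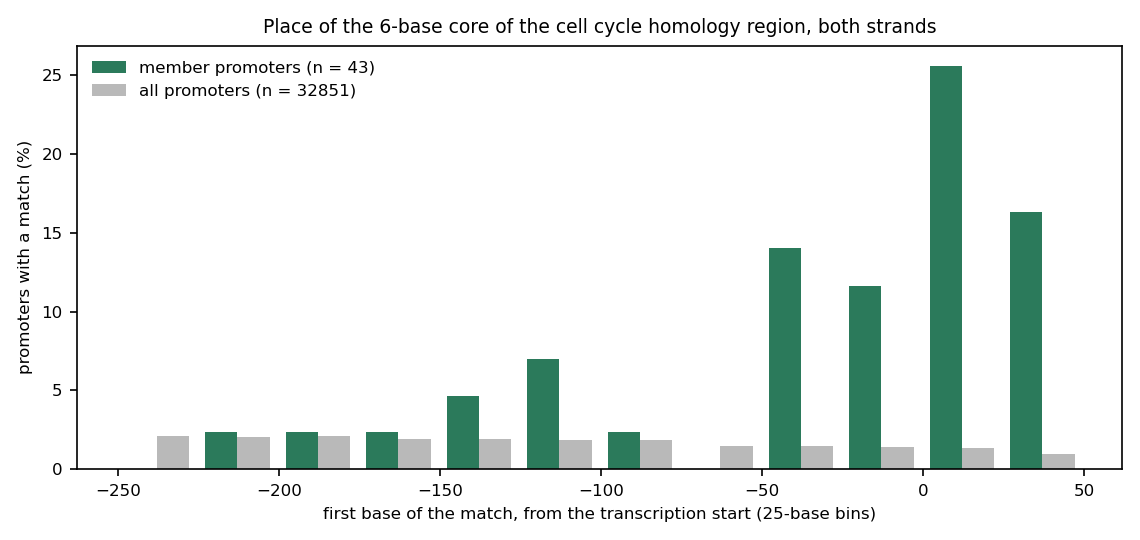
Bars give the share of promoters with a match to the 6-base core of the cell cycle homology region that begins in each 25-base bin, for the 43 promoters of members (green) and all 32851 promoters (grey). The 4 bins from -50 to 49 hold 11.6 to 25.6% of the member promoters each, and no bin holds more than 2.12% of all promoters.

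Among the 6 genes of chromosome condensation and topology, 5 rose in both genotypes. Mki67, the coat protein of mitotic chromosomes that is read as Ki-67, had the largest rise in wildtype mice. On the wildtype air arrays Mki67 measured 6.28, 5.78, 6.42 and 6.59 log2 intensity, and on the wildtype ozone arrays 8.83, 8.55, 8.96 and 9.05 (M1, M2, F1 and then F2 here and throughout). In deficient mice it measured 6.75, 6.52, 6.83 and 6.63 in air and 9.20, 9.28, 9.18 and 9.91 in ozone. Every ozone array stood far above every air array in each genotype, and the rise was 2.58 ± 0.14 log2 in wildtype (estimate ± SE of the fit, 5.98-fold, adjusted p = 2.42e-08) and 2.71 ± 0.14 in deficient mice. Top2a, the topoisomerase that untangles sister DNA, had its largest rise in deficient mice. Top2a stood at 6.15, 6.09, 6.29 and 6.34 log2 intensity in wildtype air and at 8.81, 8.31, 8.69 and 8.74 in wildtype ozone. Deficient mice had 6.10, 6.43, 6.29 and 6.27 in air and 8.99, 9.08, 8.81 and 9.22 in ozone. Its groups did not overlap either, with rises of 2.42 ± 0.11 and 2.75 ± 0.11, and wildtype ozone M2 was the lowest of the 8 ozone arrays for both genes. The condensin core subunit Smc2 rose by 1.04 ± 0.11 and 1.28 ± 0.11, the condensin I subunit Ncaph by 0.80 ± 0.081 and 0.88 ± 0.081, and Ncapg, another subunit of the same ring, by 0.29 ± 0.10 (adjusted p = 0.0353) and 0.61 ± 0.10. In wildtype mice the Ncapg groups overlapped, since ozone F2 at 5.05 lay below air F2 at 5.15.

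Smc4, the partner of Smc2 in condensin, was the member of this group that did not rise. The 4 wildtype air arrays gave Smc4 at 9.81, 9.96, 9.98 and 9.88 log2 intensity, against 9.35, 9.30, 9.46 and 9.61 on the ozone arrays. Every wildtype ozone array lay below every air array, a difference of -0.48 ± 0.10 log2 (adjusted p = 0.00219). The values in deficient mice were 9.92, 9.83, 10.12 and 10.27 in air and 10.03, 9.73, 9.84 and 9.59 in ozone. These groups overlapped, since deficient ozone M1 and F1 lay above deficient air M2, and the difference of -0.24 ± 0.10 was not called (adjusted p = 0.09). Of its other probe sets, 1 gave -0.50 in wildtype and -0.23 in deficient mice, and the other -0.15 and 0.11, with only the first called, in wildtype mice.

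The chromosomal passenger complex, which corrects wrong attachments and steers cytokinesis, rose in all 3 members in both genotypes. Birc5, the subunit survivin, had the largest rise of all members in deficient mice. In wildtype mice Birc5 measured 5.38, 4.96, 5.19 and 5.36 log2 intensity in air and 7.88, 7.68, 7.62 and 7.71 in ozone. On the deficient arrays it was 5.39, 5.24, 5.36 and 5.43 in air and 8.49, 8.12, 8.22 and 8.40 in ozone. The rise was 2.50 ± 0.10 log2 in wildtype (5.65-fold, adjusted p = 2.13e-09) and 2.95 ± 0.10 in deficient mice (7.73-fold, adjusted p = 1.87e-10), and all 4 deficient ozone arrays lay above all 4 wildtype ozone arrays. Aurkb, the kinase of the complex, rose by 1.45 ± 0.095 and 1.58 ± 0.095. Its scaffold Incenp rose by 0.76 ± 0.11 and 1.10 ± 0.11, the smallest rises of the 3, and of its dimmer probe sets 1 was called higher in both genotypes (0.89 and 1.03) and 1 was not called (0.12 and 0.13).

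At the centromere and kinetochore 5 of 6 members rose in both genotypes. Spc25, a subunit of the Ndc80 complex that grips microtubule ends, rose most. On the wildtype air arrays Spc25 measured 5.15, 5.43, 5.47 and 5.65 log2 intensity, and on the wildtype ozone arrays 7.40, 7.14, 7.17 and 7.38. In deficient mice it measured 5.52, 5.55, 5.31 and 5.43 in air and 7.78, 7.61, 7.32 and 7.88 in ozone. Its groups did not overlap, with rises of 1.85 ± 0.12 and 2.19 ± 0.12 log2. Nuf2 of the same complex rose by 1.45 ± 0.097 and 1.61 ± 0.097, and Ndc80 itself by 0.70 ± 0.098 and 0.78 ± 0.098. The fibrous corona protein Cenpf rose by 1.45 ± 0.12 and 1.60 ± 0.12, and Cenpa, the histone H3 variant that marks centromeres, by 1.10 ± 0.11 and 1.38 ± 0.11. Cenpe, the kinesin that brings chromosomes to the spindle equator, was not called in either genotype. Cenpe stood at 4.23, 4.14, 4.15 and 4.33 log2 intensity in wildtype air and at 4.25, 4.14, 4.23 and 4.35 in wildtype ozone. Deficient mice had 4.07, 4.19, 4.22 and 4.14 in air and 4.59, 4.39, 4.28 and 4.21 in ozone. The groups overlapped, and the differences were 0.031 ± 0.08 (adjusted p = 0.789) and 0.22 ± 0.08 (adjusted p = 0.0538). Its probe set was in the dimmest 25% of genes and had no second probe set beside it.

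Of 5 members of the spindle checkpoint 4 were higher in wildtype and 5 in deficient ozone mice, with medians of 0.81 and 0.88 log2. Mad2l1, which forms the inhibitor of the anaphase-promoting complex, rose by 1.13 ± 0.11 and 1.21 ± 0.11. The kinase Bub1 rose by 1.05 ± 0.12 in wildtype and 1.495 ± 0.12 in deficient mice, the largest in that genotype. The 4 wildtype air arrays gave Bub1 at 5.47, 5.21, 5.32 and 5.68 log2 intensity, against 6.31, 6.41, 6.59 and 6.57 on the ozone arrays. The values in deficient mice were 5.02, 5.61, 5.58 and 5.50 in air and 6.97, 7.01, 6.83 and 6.87 in ozone. The ozone arrays of the deficient mice lay above those of the wildtype mice without overlap. Its relative Bub1b, or BubR1, rose by 0.79 ± 0.09 and 0.78 ± 0.09, and Ttk, the kinase Mps1 that starts the signal, by 0.81 ± 0.13 and 0.88 ± 0.13. Bub3, which carries Bub1 and BubR1 to kinetochores and also binds other proteins outside mitosis, had the smallest differences. In wildtype mice Bub3 measured 10.65, 10.63, 10.54 and 10.77 log2 intensity in air and 10.77, 10.76, 10.79 and 10.68 in ozone. On the deficient arrays it was 10.75, 10.59, 10.75 and 10.69 in air and 10.82, 10.83, 10.86 and 10.94 in ozone. In wildtype mice the groups overlapped and the difference of 0.10 ± 0.06 was not called (adjusted p = 0.198). In deficient mice the groups did not overlap, and 0.17 ± 0.06 was called at an adjusted p of 0.0487. The other Bub3 probe sets gave 0.17, -0.26 and -0.09 in wildtype and 0.19, -0.19 and -0.17 in deficient mice, so the direction depends on the probe set.

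Among the genes of anaphase, Cdc20 and Ube2c rose and Pttg1 fell. Cdc20 activates the anaphase-promoting complex and is the protein that the checkpoint holds back. On the wildtype air arrays Cdc20 measured 6.69, 7.23, 7.19 and 7.33 log2 intensity, and on the wildtype ozone arrays 9.52, 9.16, 9.46 and 9.85. In deficient mice it measured 7.05, 7.14, 7.46 and 7.39 in air and 9.90, 9.65, 9.72 and 10.45 in ozone. The rise was 2.39 ± 0.15 and 2.67 ± 0.15 log2, and deficient ozone F2 was the highest array. Ube2c, the enzyme that gives ubiquitin to the same complex, rose by 2.46 ± 0.12 and 2.61 ± 0.12, with ozone values of 8.77 to 8.89 in wildtype and 8.90 to 9.36 in deficient mice. Pttg1, securin, the inhibitor of separase that Cdc20 marks for destruction, was lower in ozone. Pttg1 stood at 12.31, 12.13, 12.22 and 12.48 log2 intensity in wildtype air and at 12.09, 11.99, 12.07 and 12.01 in wildtype ozone. Deficient mice had 12.45, 12.20, 12.51 and 12.29 in air and 12.03, 12.06, 12.20 and 12.14 in ozone. All wildtype ozone arrays lay below all wildtype air arrays, while in deficient mice ozone F1 reached air M2, and the differences were -0.25 ± 0.076 (adjusted p = 0.0208) and -0.26 ± 0.076 (adjusted p = 0.0191). All 3 Pttg1 probe sets were called lower in both genotypes, the others at -0.27 and -0.31 in wildtype and -0.35 and -0.30 in deficient mice.

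All 5 mitotic kinases were higher in deficient ozone mice, and 4 in wildtype ozone mice. Plk1, the polo kinase of mitotic entry and centrosome maturation, rose most in wildtype mice. The 4 wildtype air arrays gave Plk1 at 5.80, 5.89, 5.90 and 5.95 log2 intensity, against 7.73, 7.52, 7.20 and 7.38 on the ozone arrays. The values in deficient mice were 6.03, 5.75, 5.84 and 6.02 in air and 7.48, 7.65, 7.38 and 7.9998 in ozone. The rise was 1.57 ± 0.13 and 1.72 ± 0.13 log2. Aurka, the kinase of spindle poles, rose by 1.47 ± 0.11 and by 1.76 ± 0.11, the largest rise of a kinase in deficient mice. Plk4, which starts centriole duplication, rose by 0.72 ± 0.10 in wildtype and 1.18 ± 0.10 in deficient mice. In wildtype mice Plk4 measured 7.21, 7.18, 6.72 and 7.21 log2 intensity in air and 7.91, 7.70, 7.75 and 7.83 in ozone. On the deficient arrays it was 7.20, 7.02, 6.98 and 6.73 in air and 8.20, 8.29, 7.99 and 8.18 in ozone. All ozone arrays lay above all air arrays, and those of the deficient mice were the highest. Melk, a kinase transcribed in dividing cells, rose by 1.11 ± 0.14 and 1.12 ± 0.14. Nek2, a kinase of centrosome separation, had the smallest differences, 0.32 ± 0.12 (adjusted p = 0.057, not called) and 0.36 ± 0.12 (adjusted p = 0.0417). Its groups overlapped in both genotypes, at 5.10 to 5.90 in wildtype air against 5.69 to 6.05 in ozone and at 5.40 to 5.86 in deficient air against 5.85 to 6.13.

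Of 8 spindle motors and microtubule proteins all were higher in wildtype ozone mice and 7 in deficient ozone mice. Tpx2, which activates Aurora A and nucleates microtubules near chromosomes, rose most in wildtype mice, by 1.67 ± 0.097, and by 1.72 ± 0.097 in deficient mice. Kif22, the kinesin Kid that pushes chromosome arms outwards, rose most in deficient mice. On the wildtype air arrays Kif22 measured 7.09, 6.80, 7.40 and 7.79 log2 intensity, and on the wildtype ozone arrays 8.42, 8.41, 8.72 and 8.89. In deficient mice it measured 7.31, 7.12, 7.60 and 7.25 in air and 9.09, 9.03, 8.99 and 9.73 in ozone. The rise was 1.34 ± 0.15 and 1.89 ± 0.15 log2, and deficient ozone F2 stood above the other arrays of its group. Nusap1, a bundler of microtubules, rose by 1.25 ± 0.084 and 1.58 ± 0.084, Hmmr, a protein of spindle poles, by 1.15 ± 0.09 and 1.25 ± 0.09, and Kif11, the kinesin Eg5 that pushes the poles apart, by 0.98 ± 0.10 and 0.94 ± 0.10. The microtubule depolymerase Kif2c rose by 0.48 ± 0.085 and 0.65 ± 0.085, and the chromokinesin Kif4 by 0.51 ± 0.10 and 0.77 ± 0.10. Tacc3, which cross-links spindle microtubules with clathrin, had the smallest differences. Tacc3 stood at 6.00, 6.10, 6.04 and 5.82 log2 intensity in wildtype air and at 6.46, 6.25, 6.10 and 6.37 in wildtype ozone. Deficient mice had 5.81, 6.04, 6.10 and 6.09 in air and 6.10, 6.16, 6.05 and 6.50 in ozone. The groups overlapped in both genotypes, and the difference was 0.30 ± 0.11 in wildtype (adjusted p = 0.0389) and 0.19 ± 0.11 in deficient mice (adjusted p = 0.196). Of its other probe sets 1 was called higher in both genotypes (0.86 and 1.24) and 1 was not called (0.11 and -0.032).

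The midzone and cytokinesis genes were the group in which all 7 members rose at least 2-fold in both genotypes on the chosen probe sets. Cep55, which recruits the abscission machinery to the midbody, rose most. The 4 wildtype air arrays gave Cep55 at 5.31, 5.14, 5.16 and 5.23 log2 intensity, against 7.64, 7.18, 7.17 and 7.46 on the ozone arrays. The values in deficient mice were 4.82, 5.18, 5.19 and 5.12 in air and 7.97, 7.72, 7.82 and 7.98 in ozone. The rise was 2.15 ± 0.11 in wildtype (4.44-fold) and 2.79 ± 0.11 log2 in deficient mice (6.94-fold), and the ozone arrays of both genotypes did not overlap. The dimmer probe set of Cep55 rose less, by 0.49 in wildtype and 0.41 in deficient mice. Ect2, the exchange factor that turns on RhoA for the contractile ring, rose by 1.97 ± 0.14 and 2.47 ± 0.14, and Anln, anillin, the scaffold of that ring, by 1.63 ± 0.11 and 1.94 ± 0.11. Racgap1 and Kif23, which together form the centralspindlin complex, rose by 1.48 ± 0.10 and 1.40 ± 0.11 in wildtype and by 1.62 ± 0.10 and 1.44 ± 0.11 in deficient mice. Prc1, which bundles midzone microtubules, rose by 1.45 ± 0.098 and 1.82 ± 0.098. Kif20a, a kinesin of the midzone, had the smallest wildtype rise of this group, 1.12 ± 0.11, and rose by 1.55 ± 0.11 in deficient mice.

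**Figure D3:**
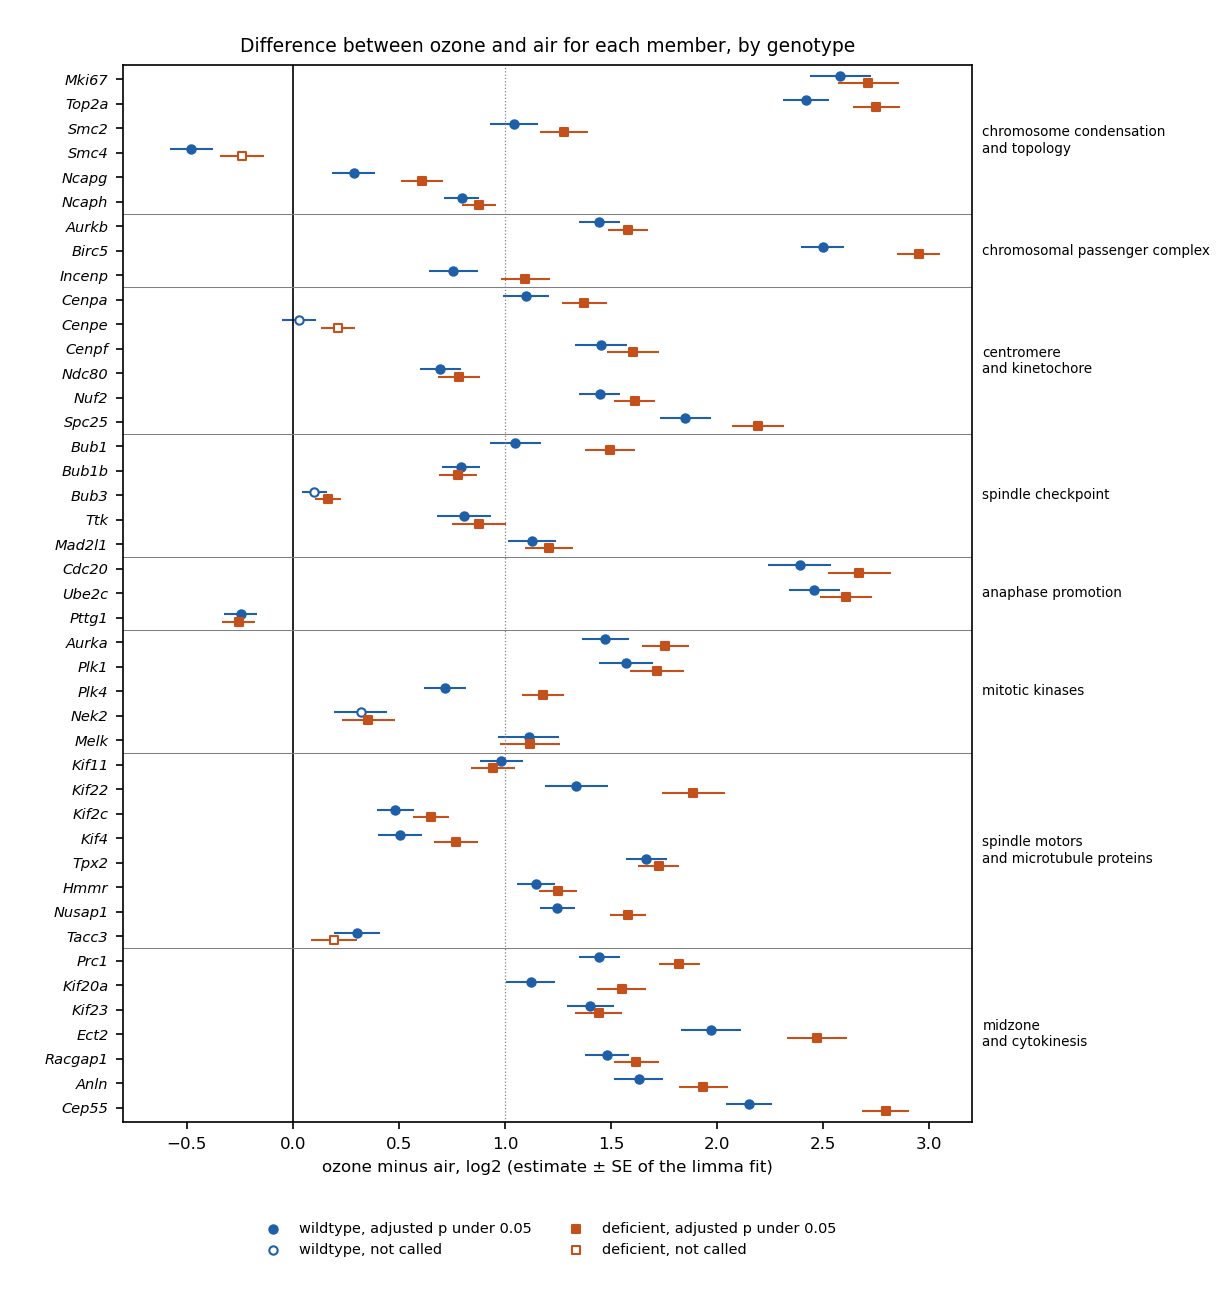
Points give the ozone minus air difference of each member in log2 (estimate ± SE of the limma fit, 4 arrays per group), blue circles for wildtype and orange squares for deficient mice, open where the adjusted p was not under 0.05. The dotted line is a 2-fold difference. Most points lie right of it, and Smc4 and Pttg1 lie left of 0 in both genotypes.

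A few of these calls lay near the threshold and changed when a single array was left out. For Bub3 in deficient mice the call was kept without wildtype air F1, wildtype air F2 or wildtype ozone F2, and was lost without any one of the other 13 arrays, with differences of 0.13 to 0.19. Arrays of the other genotype do not enter a difference, so leaving them out moved only its adjusted p. Nek2 in deficient mice was not called without deficient air M1 (0.34), M2 (0.31) or F2 (0.37), deficient ozone M1 (0.26), M2 (0.32) or F2 (0.40), or wildtype ozone M1 or F1 (0.36 each). In wildtype mice Nek2 was called without wildtype air M2 (0.39) or F2 (0.41), and without deficient ozone M1 or F1 (0.32 each). For Ncapg in wildtype mice the call was lost without air M1 (0.23) or M2 (0.26) or ozone M1 (0.18) or M2 (0.29). Tacc3 in wildtype mice lost its call without air M1 (0.31), F1 (0.32) or F2 (0.24) or ozone M1 (0.24), M2 (0.32) or F2 (0.28). Pttg1 was not called in wildtype mice without air M1 (-0.22) or F2 (-0.19) or ozone F2 (-0.22), and in deficient mice without air M1 (-0.21) or F1 (-0.22). In deficient mice Smc4 was called lower without air M2 (-0.30) or ozone M1 (-0.34), and Cenpe higher without deficient ozone F2 (0.27) or wildtype air F2 (0.22). The other calls of ozone against air held without each single array.

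The members can also be read as 1 level per array. Averaged over the members and set against the mean of the air arrays, the wildtype ozone arrays lay at 1.15 ± 0.087 log2 (SD, n = 4, from 1.06 to 1.26) and the deficient ozone arrays at 1.41 ± 0.13 (SD, n = 4, from 1.26 to 1.55). The air arrays lay between -0.067 and 0.068. Within deficient ozone, F2 was the highest array for 22 members and F1 the lowest for 28. Within wildtype ozone, M1 was the highest for 25 and M2 the lowest for 20. The lowest of these, wildtype ozone M2, also had the highest sum of 9 neutrophil markers, 47846 intensity units against at most 8180.3 on the air arrays and 7732.1 in deficient ozone, and S100a8 at 13.68 log2. Its part in the result was not tested, and without it 36 members were higher in wildtype mice. The members' differences in wildtype and in deficient mice correlated at Pearson's r of 0.98 across the 43 genes, which are not independent replicates and share normalization and the sex term of the fit.

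**Figure D4:**
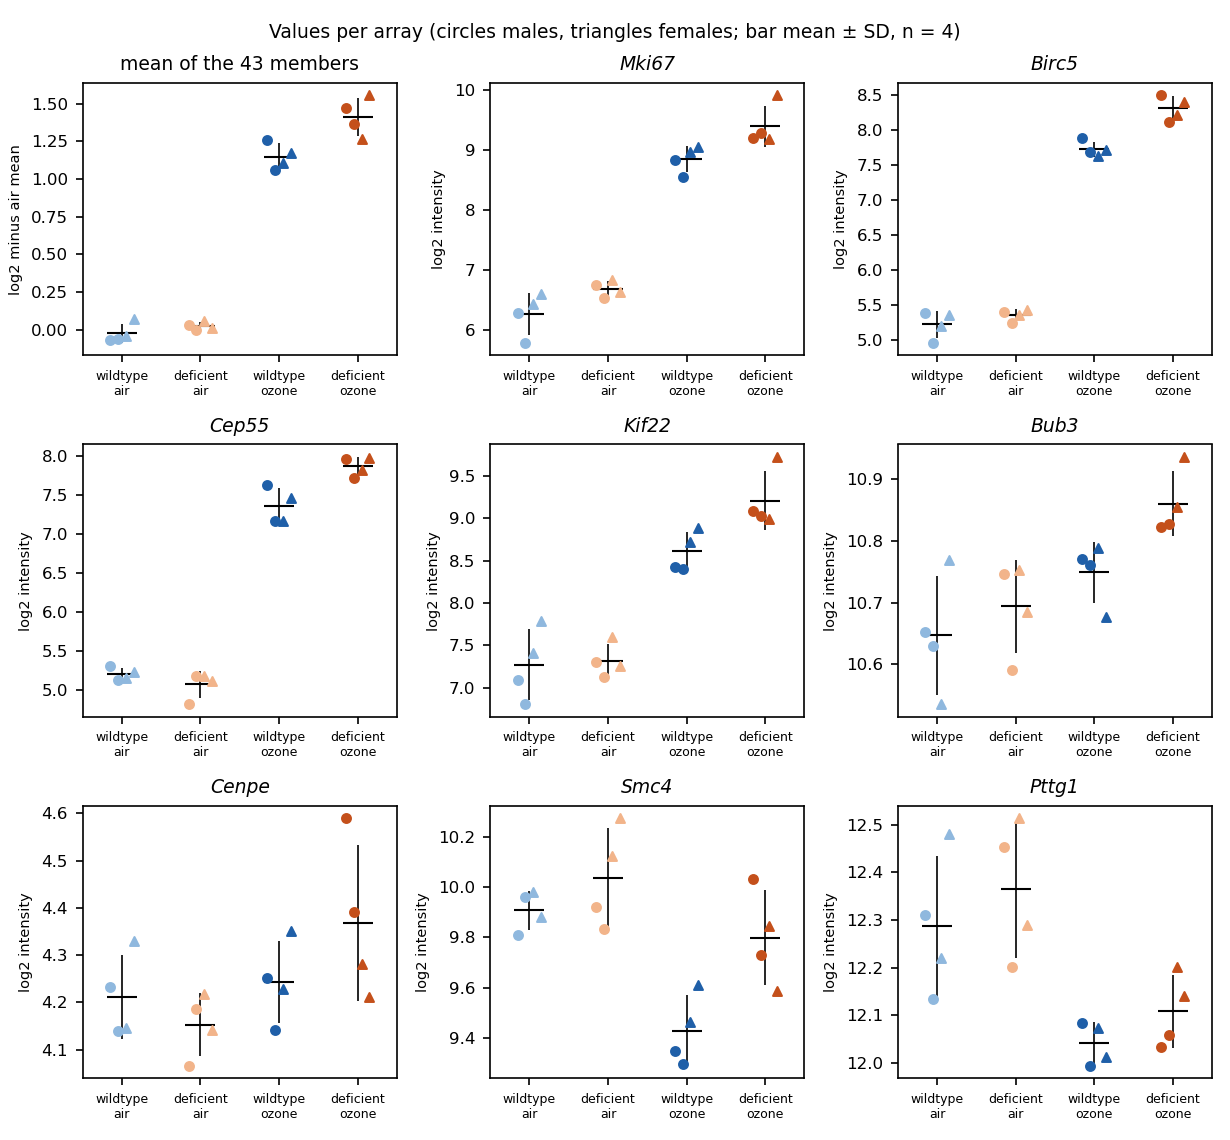
The first panel gives the mean of the 43 members on each array as log2 minus the mean of the 8 air arrays, and the others give the log2 intensity of 8 members. Points are single arrays (circles males, triangles females) and bars are the mean ± SD of 4, and each panel has its own axis, which does not start at 0. Mki67, Birc5, Cep55 and Kif22 are high on all ozone arrays, Bub3 and Cenpe differ little, and Smc4 and Pttg1 are low on the wildtype ozone arrays. The mean of Pttg1 is also lower in deficient ozone than in deficient air.

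The genotypes were compared next, in air and in ozone. In air no member was called by limma (0.00807% of all genes were), and 1, Mki67, had an unadjusted p under 0.05 (5.91% of all genes). The median difference, deficient minus wildtype, was 0.048 log2, 32 of 43 estimates were above 0 (48.6% of all genes), and for 0 members did the groups not overlap (0.815% of all genes above and 1.62% below). In ozone no member was called by limma either, where 0.0161% of all genes were. There 41 of the 43 estimates were above 0 (47.1% of all genes), the median was 0.25 log2 (-0.008 over all genes), and 22 had an unadjusted p under 0.05, all of them higher in deficient mice (11.2% of all genes in either direction). For 12 members all deficient ozone arrays lay above all wildtype ozone arrays, and for 0 below, which held for 2.16% and 3.32% of all genes. The 12 were Mki67, Birc5, Incenp, Cenpa, Nuf2, Bub1, Bub3, Ube2c, Plk4, Kif22, Prc1 and Cep55. All members were read on the same ozone arrays and are not independent replicates, so these counts do not measure the spread between mice. The smallest adjusted p was that of Birc5, whose level was 8.31 ± 0.17 in deficient ozone against 7.72 ± 0.11 in wildtype ozone (SD, n = 4 each), a difference of 0.59 ± 0.10 (95% interval 0.37 to 0.80, adjusted p = 0.0674, and 0.0042 to 0.314 over its alternatives). Birc5 was called under only 4 of 31 alternatives. These were without wildtype air M2 (adjusted p = 0.0426), with array weights, with log2 of intensity plus 16 and with replicate numbers as a block. The block gave the 0.0042, though arrays of the same replicate number did not deviate together (median correlation of -0.098). The largest difference was that of Kif22, 0.60 ± 0.15 (95% interval 0.29 to 0.91, adjusted p = 0.21), followed by Mki67 at 0.54 ± 0.14 (adjusted p = 0.241) and Cep55 at 0.51 ± 0.11 (adjusted p = 0.141). On dimmer probe sets the difference was 0.11 and 0.31 for Kif22 and -0.0073 for Cep55, and Mki67 had no other probe set. Bub1b and Tacc3 were the members with estimates below 0, at -0.01 and -0.09. For Tacc3 the direction depends on the probe set. The dimmer one called higher in ozone in both genotypes gave 0.41 (adjusted p = 0.0823 by limma over all probe sets), and the other gave -0.11. The median of 0.25 was 0.22 without wildtype ozone M2, the array with the lowest members in ozone, and 0.19 without deficient ozone F2, the array with the highest. In the same comparison no gene of the cell marker lists was called by limma. Estimates were above 0 for 7 of 8 T and NK cell genes (median of 0.26, 3 with an unadjusted p under 0.05), whose summed intensity was 822.77 to 957.82 in wildtype ozone and 877.07 to 1378.8 in deficient ozone. They were above 0 for 8 of 10 macrophage genes (median of 0.16, 2 with an unadjusted p under 0.05), 5 of 6 B and plasma cell genes (0.20, 1) and 3 of 9 neutrophil genes (-0.39, 0). Of the lung's own cells they were above 0 for 1 of 6 alveolar type 1 genes (-0.16, 2) and 1 of 7 type 2 genes (-0.076, 0). The same held for 2 of 8 club and ciliated cell genes (-0.029, 1) and 3 of 8 endothelial genes (-0.014, 0). For fat cells, whose list includes Adipoq, it held for 0 of 6 genes (-0.30, 1). The part of all these cells in the members' differences was not tested.

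**Figure D5:**
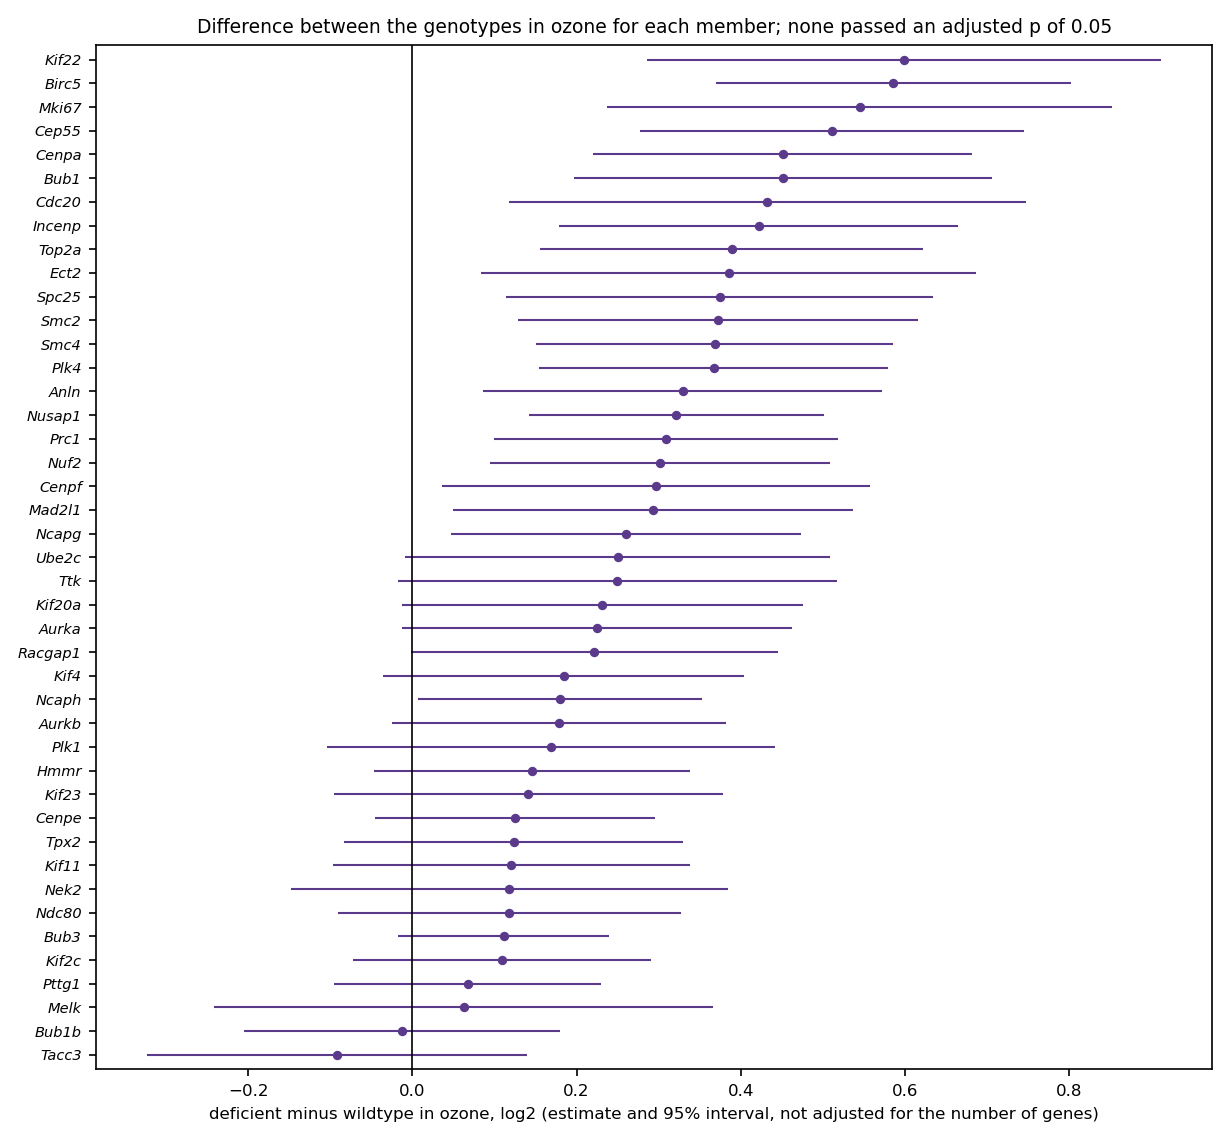
Points give the deficient minus wildtype difference in ozone of each of the 43 members in log2, with the 95% interval of the limma fit, ordered by size. Intervals are not adjusted for the number of genes. Of the 43 points 41 lie right of 0, and no member passed an adjusted p of 0.05.

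Whether the ozone difference itself depended on genotype was tested by the interaction. No member was called by limma, nor was any gene, and 11 had an unadjusted p under 0.05 (4.88% of all genes). The estimate was larger in deficient mice for 39 of 43 members (48.7% of all genes), with a median of 0.17 log2 and a smallest adjusted p of 0.726. Among the 37 members called higher in both genotypes 35 had the larger estimate in deficient mice, which held for 60.9% of the 1532 genes called higher in both. These counts rest on the same ozone arrays as the genotype comparison in ozone, and the members are not independent replicates. The largest interaction was that of Cep55, whose rise was 0.64 log2 larger in deficient mice (95% interval 0.31 to 0.97), followed by Kif22 at 0.55 (95% interval 0.11 to 0.99), Ect2 at 0.50 (95% interval 0.072 to 0.92), Plk4 at 0.46 (95% interval 0.16 to 0.76) and Birc5 at 0.45 (95% interval 0.15 to 0.76). These intervals do not cover 0, are not adjusted for the number of genes, and belong to the members with the largest estimates. Dimmer probe sets of these members, which were picked for a large estimate on the chosen set, gave smaller ones. These were -0.081 for Cep55, 0.060 and 0.37 for Kif22, and 0.19 and 0.0048 for Plk4. Ect2 and Birc5 had no other probe set. Other members went both ways, with dimmer sets of Ncaph (0.50 against 0.082) and Racgap1 (0.38 against 0.14) above the chosen set and that of Top2a (-0.079 against 0.33) below. For Melk, at 0.0066 (95% interval -0.42 to 0.44), Pttg1 and Bub1b the estimates were nearest 0. Leaving out deficient ozone F2, the array with the highest members, left the median at 0.15.

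Sex was fitted with the groups. Kif22 was higher in females by 0.39 ± 0.10 log2 (adjusted p = 0.0431 by limma) and Nusap1 lower by -0.21 ± 0.059 (adjusted p = 0.0492), 2 of 43 members where 5.66% of all genes were called. Without single arrays in turn the Kif22 difference was 0.33 to 0.46 and its adjusted p 0.0138 to 0.0891, and only without deficient air M1, deficient air F2 or deficient ozone F1 did it stay called. The Nusap1 difference was -0.25 to -0.18 with an adjusted p of 0.0247 to 0.0965, and it stayed called only without deficient air M1, wildtype ozone M2, wildtype ozone F1 or deficient ozone M2. An unadjusted p under 0.05 was reached by 13 members (20.9% of all genes). No member's ozone difference was called by limma as different between the sexes (0.00807% of all genes were), 3 had an unadjusted p under 0.05 (8.65% of all genes), and the smallest adjusted p was 0.516. In males alone 37 members were higher in ozone in each genotype, where 13.2% of all genes were called higher in wildtype and 7.15% in deficient mice. In females alone 34 were higher in wildtype and 37 in deficient mice, where 6.77% and 9.13% of all genes were. Leaving out arrays brought up other members for sex: Aurkb was called lower in females without deficient air F2 (-0.23), Incenp higher without wildtype ozone M1 (0.30), Ube2c lower without deficient ozone M2 (-0.32), and Mki67 (0.37) and Cdc20 (0.38) higher without deficient ozone F1.

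The members had 82 probe sets in all, of which 39 were not the brightest of their gene, over 24 members. In a fit over all probe sets, 23 of these 39 were higher in ozone in each genotype, 4 were lower and 12 were not called. The lower ones belonged to Pttg1, Bub3 and, in wildtype mice, Smc4. Some dimmer probe sets of members with large rises were not called in either genotype, such as those of Top2a (0.13 and 0.06), Cenpf (0.09 and 0.02), Spc25 (0.17 and 0.11) and Kif23 (0.02 and 0.04). The chosen probe sets of Ncaph, Aurkb, Incenp, Cdc20, Kif22, Kif2c and Tacc3 carry the suffix _x_at, which marks probes that may also match other sequences, and those of Bub3, Pttg1, Plk4 and Prc1 the suffix _s_at, which marks probes shared by several transcripts. Cdc20 rose on its 2 other probe sets too, at 1.94 and 0.92 in wildtype mice, as did Kif22 at 0.92 and 0.85, both at smaller differences than on the chosen set. The 11 members in the dimmest 25% of genes had a median ozone difference of 0.98 and 0.94 log2 in wildtype and deficient mice, and the other 32 had 1.29 and 1.54. Brightness was the mean over all arrays, those of ozone included, so a large rise itself moves a member to the brighter side. Birc5, at a mean of 5.22 in wildtype air and 5.36 in deficient air, was under the limit of 5.83 there and counted as brighter. The 2 medians therefore do not show how the ozone difference depends on brightness.

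Of 120 other mitotic genes in 6 lists 86 were measured, and 45 were higher and 14 lower in wildtype ozone mice (medians of 0.20 log2 in each genotype), and 42 higher and 6 lower in deficient ozone mice. Of 11 genes of mitotic entry 9 were higher in both genotypes, with medians of 0.87 and 0.96. Among them Cdk1, the kinase that starts mitosis, rose by 2.56 ± 0.14 and 2.82 ± 0.14, and its cyclins Ccna2 and Ccnb2 by 2.27 ± 0.15 and 2.02 ± 0.15 in wildtype mice. Of 11 regulators of mitotic transcription 6 were higher and 1 lower in each genotype. The MuvB partner Mybl2, or B-Myb, rose by 0.58 ± 0.095 and 0.57 ± 0.095, Tfdp1, the partner of E2F factors, by 0.56 ± 0.068 and 0.48 ± 0.068, and Rbl2, the pocket protein p130 of resting cells, was lower, at -0.60 ± 0.10 and -0.44 ± 0.10. Of 21 other kinetochore and checkpoint genes 12 were higher and 1 lower in wildtype and 14 and 0 in deficient mice, led by the centromere proteins Cenpm at 0.84 ± 0.12, Cenpk at 0.73 ± 0.10 and Cenpt at 0.56 ± 0.061 in wildtype mice.

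Other condensin and cohesin genes went both ways, 3 higher and 5 lower of 11 in wildtype and 4 and 3 in deficient mice. The condensin subunits Ncapd2 and Ncapg2 rose by 1.27 ± 0.14 and 1.09 ± 0.10 in wildtype mice and Cdca5, sororin, which holds sister chromatids together, by 1.66 ± 0.12. The 5 lower genes, named after their values were seen, were the cohesin subunits Smc3, Rad21, Stag1 and Stag2 and the cohesin loader Nipbl, at -0.46 to -0.26 log2. Of 19 other spindle and centrosome genes 10 were higher and 5 lower in wildtype and 6 and 2 in deficient mice, with Cdca3 at 2.03 ± 0.14, the spindle protein Ckap2 at 1.17 ± 0.095 and Dlgap5, or HURP, at 0.67 ± 0.10 in wildtype mice. Of 13 genes of the anaphase-promoting complex and its partners 5 were higher and 2 lower in wildtype and 3 and 0 in deficient mice. These differences were small, with the activator Fzr1 at 0.40 ± 0.078, the subunit Cdc23 at -0.34 ± 0.06 and the enzyme Ube2s at 0.27 ± 0.076, beside 2.46 for the member Ube2c.

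Markers of the cell types that a lung sample can hold were read beside these counts, and their part in the members' differences was not tested. The fibroblast list split, with 3 of 6 genes called higher, 1 called lower and the other 2 estimates below 0 in each genotype (medians of 0.22 and 0.21). Its summed intensity was 13667 to 18777 in wildtype air and 16627 to 24210 in wildtype ozone, which overlap, and 12454 to 14955 in deficient air and 18942 to 24220 in deficient ozone. Named after their values were seen, the higher genes were the collagens Col1a1 (1.19 ± 0.16 in wildtype and 1.60 ± 0.16 in deficient mice), Col1a2 (0.56 ± 0.11 and 0.73 ± 0.11) and Col3a1 (0.81 ± 0.14 and 1.18 ± 0.14). The lower gene was the growth factor receptor Pdgfra (-0.39 ± 0.089 and -0.31 ± 0.089), and the matrix proteoglycans Dcn (-0.19 ± 0.17 and -0.43 ± 0.17) and Lum (-0.13 ± 0.25 and -0.36 ± 0.25) were not called. Endothelium had 0 of 8 genes higher and 1 lower in wildtype and 4 and 1 in deficient mice, with sums of 16012 to 19313 in wildtype air, 16766 to 19535 in wildtype ozone, 14951 to 17059 in deficient air and 16535 to 19629 in deficient ozone. Alveolar type 2 cells had 2 of 7 higher in each genotype, type 1 cells 2 of 6 higher and 1 lower in wildtype and 1 and 2 in deficient mice, and club and ciliated cells 2 and 3 of 8 lower. By limma 0 of 9 neutrophil genes and 0 of 6 mast cell genes were called, with 0 and 2 at an unadjusted p under 0.05 in each genotype. Of 10 macrophage genes 2 were lower in wildtype and 3 in deficient mice, of 6 B and plasma cell genes 2 in each, and of 8 T and NK cell genes 2 were lower in wildtype and 1 lower and 1 higher in deficient mice. T and NK cell sums were 1016.5 to 1320.8 in wildtype air and 822.77 to 957.82 in wildtype ozone. In deficient mice they were 1010.9 to 1268.2 in air and 877.07 to 1378.8 in ozone. B and plasma cell sums were 1300.2 to 4453.4 in wildtype air and 805.66 to 1208.9 in wildtype ozone. Those of deficient mice were 1942.2 to 3816.6 in air and 898.37 to 2828.2 in ozone. Red blood cell precursors had 1 of 7 higher and 1 lower in each genotype, and squamous epithelium 1 of 7 higher in each. Squamous sums were 362.44 to 429.22 in wildtype air and 917.63 to 1122.7 in wildtype ozone. In deficient mice they were 351.46 to 13387 in air and 794.64 to 1154.2 in ozone. By limma 0 of 6 fat cell genes were called (1 and 3 at an unadjusted p under 0.05 in wildtype and deficient mice) and 0 of 8 genes of striated muscle (0 and 1). Striated muscle sums ran from 2007.3 to 29332 in deficient air, against 1426 to 2442.1 in wildtype air.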

How the data were processed

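Affymetrix arrays were hybridised with biotin-labelled left lung RNA of 16 mice, per the labels, while the sample titles say whole lung RNA. For every array the deposited table holds an intensity per probe set, computed by the authors with RMA, which corrects background, normalizes arrays to each other and sums probes, per the submitters' processing notes. The sources used here do not name the software. The values ran from 11.13 to 26974.7, a linear scale, so log2 was taken. No detection calls were used here, so background is unknown for dim probe sets, and normalization between arrays would hide a change shared by all genes. Of 22690 probe sets 64 were controls, 20380 had 1 symbol in the platform annotation, which can be old, 691 had several and 1555 none. Probe sets without exactly 1 symbol named no gene.

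The 4 groups and sex were fitted on all arrays with limma 3.58.1 in R 4.3.3, and 8 groups for ozone by sex. A gene was called at an adjusted p under 0.05 over 12393 genes, and the fit was tested on simulated data. Python 3.11.15, pandas 2.3.3 and matplotlib 3.10.9 read promoters and drew figures. The members and lists were chosen with earlier results of these data known. Named were, in each role, the members of largest and smallest ozone difference, those not called, those called for genotype or sex and those with an outlying array or disagreeing probe sets, and in each list the 3 called genes of largest wildtype difference. Alternatives were other normalizations, an offset of 16, the dimmest 25% left out, the mean of probe sets, other variance models, stricter thresholds, no sex term, a replicate block, subsets of arrays and a shorter promoter window. Protein sequences were not analysed here.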

Additional observations from a re-analysis of the deposited data

Results flagged for a closer look

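In 14 of the 172 groups of 4 arrays, 1 array stood apart from the other 3 of its group for a member, by a gap above Dixon's 95% critical value. Chance alone flags about 1 group in 20. In deficient ozone, F2 was high for Mki67, at 9.91 log2 intensity against 9.18 to 9.28 on the others, for Kif22 (9.73 against 8.99 to 9.09) and for Kif23 (8.44 against 7.93 to 7.99), and F1 was low for Aurka (6.82 against 7.22 to 7.24). In wildtype ozone, M1 was high for Smc2 (7.66 against 7.32 to 7.37), F2 high for Kif20a (6.29 against 6.03 to 6.06) and F1 low for Ube2c (8.77 against 8.87 to 8.89). In deficient air, M2 was low for Hmmr (5.48 against 5.67 to 5.70) and Kif23 (6.45 against 6.68 to 6.73) and high for Nusap1 (6.06 against 5.85 to 5.89), M1 was high for Mad2l1 (7.39 against 7.14 to 7.17), and F2 was high for Kif20a (4.88 against 4.74 to 4.76). In wildtype air, F1 was low for Plk4 (6.72 against 7.18 to 7.21) and F2 low for Aurkb (4.49 against 4.70 to 4.72). Of these arrays deficient air M2, deficient air F2 and wildtype air F1 are the 3 with markers of other tissues, and the calls of these members for ozone against air held without each single array.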

How the results depend on the processing

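Of the 86 differences between ozone and air (43 members in 2 genotypes), 80 were called, 71 kept their direction and their side of the threshold under all alternatives run, and 15 did not under at least 1. There were 31 alternatives, of which 16 left out 1 array, and 30 for the 22 differences of the 11 members that are dropped with the dimmest 25%. The count of members higher was 29 to 39 in wildtype and 29 to 40 in deficient mice over the alternatives, with 29 where the dimmest 25% and its 11 members were left out. Turned in sign were Bub3 with the mean of all probe sets (-0.019 in wildtype, -0.0015 in deficient mice), Smc4 in deficient males alone (0.0039) and Cenpe in wildtype mice without wildtype ozone F2 (-0.010, in a range of -0.010 to 0.076). The members' median of 1.13 in wildtype mice was 0.97 with log2 of intensity plus 16, 1.29 without the dimmest 25%, 1.01 with the mean of probe sets and 1.26 in males alone. That of 1.44 in deficient mice was 1.16, 1.54 and 1.12 under the first 3 of these and 1.31 in females alone, and 1.34 to 1.49 without single arrays. The dimmest 25% was set by the mean over all arrays, those of ozone included, so a large rise itself helps to keep a member in. Genotype in ozone called 1 member, Birc5, with the offset of 16, with array weights and with the replicate block, and 0 to 1 without single arrays. Sex called 1 member after quantile normalization once more, a common median, the offset, a trend and robust prior or without the 3 arrays (there Aurkb, at -0.25, and neither Kif22 nor Nusap1), 0 with the mean of probe sets, array weights, an adjusted p under 0.01 or a fold of at least 1.5, and 0 to 3 without single arrays. The share of promoters with TTTGAA was 37.2% in the shorter window. The causes were not tested. Arrays of the same replicate number did not deviate together: 2 of 24 pairs correlated over 0.1, with a median of -0.098, and 0 arrays correlated best with their own number. With the replicate block 38 and 37 members were higher in wildtype and deficient mice. Fits on the compared groups alone have no form for the interaction, and protein comparisons were not run. The number of arrays, 4 per group, limits the precision.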
